A study of Drosophila melanogaster with 19 samples.

Results

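The genes described here are core components of the Notch pathway in the pupal notum of Drosophila: the ligand genes Dl and Ser, the receptor gene N, the receptor-modifying gene fng, the protease gene kuz, the ligand-endocytosis genes neur and mib1, and the nuclear genes Su(H), mam and H. They were chosen by name, and a gene was taken as measured where the platform annotation gives a probe set that names it alone. Of the 10 genes, 6 had such a probe set, with 9 probe sets among the 18769 on the array. These were Dl (annotated as Delta), neur, fng, kuz, mam and H, and N, Ser, Su(H) and mib1 were not analysed here. RNA came from notums dissected at 16 h after puparium formation (APF) and frozen, with 8 to 12 notums pooled per array. All animals carried the driver sca-Gal4, which acts in the domain of the scabrous gene, and tub-Gal80ts, a temperature-sensitive inhibitor of Gal4. Crosses were kept at 18 °C and moved to 29 °C for 6 h before dissection. The transgenes were UAS-Ac (2 arrays), UAS-Sens (3), UAS-Ase (3), UAS-E(spl)m3-HLH (3, written m3 here), UAS-Ac with UAS-Sens (3, Ac+Sens), UAS-Ase with UAS-E(spl)m3-HLH (2, Ase+m3) and the control UAS-GFPnls (3, GFP). The labels state 3 biological replicates per condition, and the 19 arrays listed were analysed. The sources used here do not give the sexes of the animals.

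Achaete and Asense are proneural bHLH factors, Senseless is a zinc finger factor of sensory organ precursors, and E(spl)m3-HLH is a repressor of the family that Notch signalling switches on. In a field of equivalent cells of the notum, Delta on one cell binds Notch on its neighbours, and Delta becomes an active ligand through the ubiquitin ligases Neuralized and Mind bomb 1, which drive its endocytosis. Fringe adds sugars to the Notch extracellular domain and changes its response to ligand, and the metalloprotease Kuzbanian cuts bound Notch. The freed intracellular domain enters the nucleus, where it joins Suppressor of Hairless and Mastermind to activate the E(spl) genes. Hairless binds Suppressor of Hairless and recruits corepressors in the absence of the signal. None of the 6 measured genes was itself a transgene of the study.

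Of the 6 genes, neur was the only one called higher in any group against GFP, and it was called in Ac+Sens alone among the 6 groups, at 1.80-fold. H was called lower in Ase+m3 against Ase and against m3, and both calls were lost without Ase+m3 replicate 2 and without most other single arrays. Dl, fng, kuz and mam were called in no comparison. Values are log2 signals, a difference is the log2 of a fold, and a gene was called at an adjusted p under 0.05 in limma's moderated test, adjusted by the Benjamini-Hochberg method over all 18769 probe sets. Over all 7 groups together, the moderated F test called 0 of the 6 genes, against 2.75% of all probe sets, with neur nearest to the threshold (unadjusted p = 0.00178, adjusted p = 0.0558) and H next (unadjusted p = 0.043, adjusted p = 0.194). Where arrays measure a whole tissue, fewer cells of a type and less RNA per cell cannot be told apart.

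Some arrays stood apart. The array labelled Sens replicate 1 had sens at 7.38, against 10.76 and 10.75 on the other 2 Sens arrays, and sc at 10.63, against 7.17 and 6.84, so these genes went against its label. On Ase+m3 replicate 2, the signal relative to the median array fell with gene length, taken as the span of the gene on the genome and not the transcript length. On this array the Spearman correlation across 6416 probe sets was −0.691. There the median deviation was 0.31 in the shortest of 4 length classes and −0.84 in the longest. For Ase+m3 replicate 1 these medians were −0.00 and −0.06. Weaker correlations of the same sign were found on GFP replicate 2 (−0.600) and Ac+Sens replicate 3 (−0.465), and positive ones on Ac+Sens replicate 1 (0.459), Ase replicate 3 (0.440), Sens replicate 3 (0.385) and Ase replicate 1 (0.337). Probe sets are not independent of each other, so no test was made of these correlations. On 4 arrays (replicate 3 of Sens, Ase, m3 and Ac+Sens) between 60.3% and 60.6% of probe sets were listed at exactly 0 and taken as missing, but the brightest probe set of each of the 6 genes was measured on all 19 arrays. The 6 notum marker genes (pnr, tup, eyg, ara, caup and mirr) were measured on every array, with mean log2 signals from 8.15 to 8.78.

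**Figure D1:**
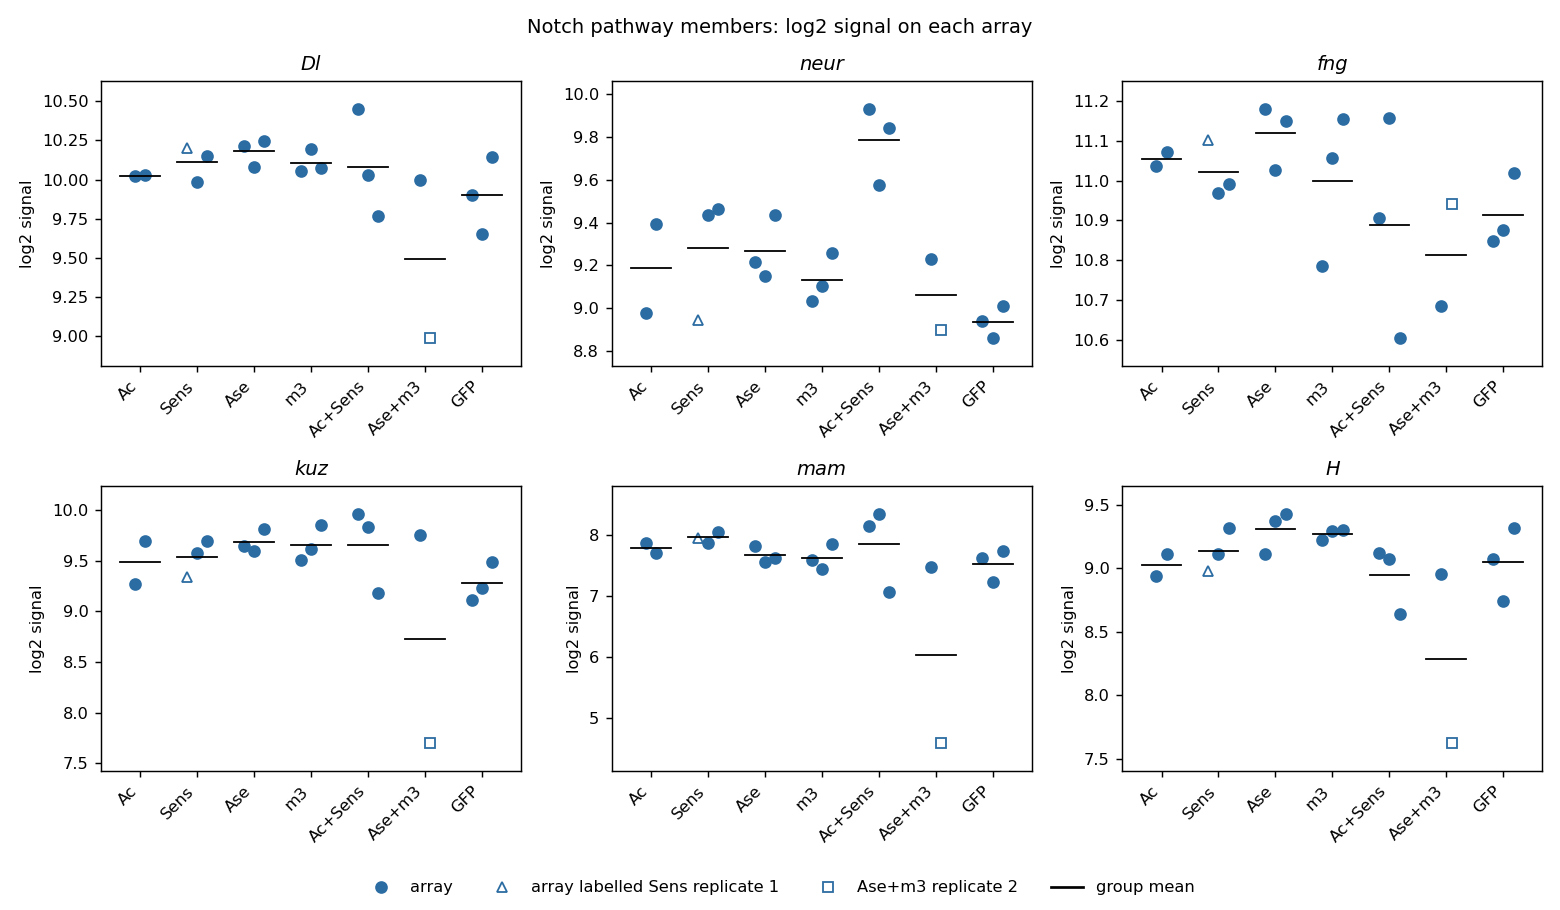
Log2 signal of the 6 measured Notch pathway genes (vertical axis, a scale of its own in each panel) on each of the 19 arrays, by over-expression group, with the group mean as a line; open symbols mark the array labelled Sens replicate 1 and Ase+m3 replicate 2. The 3 neur points of Ac+Sens lie at 9.58 to 9.93, above every other array, and Ase+m3 replicate 2 has the lowest Dl, kuz, mam and H of all arrays.

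Dl, the gene of the ligand Delta, stood at a like level in all groups but Ase+m3. Its log2 signal was 10.02 and 10.03 in Ac, 10.20, 9.99 and 10.15 in Sens, 10.21, 10.08 and 10.25 in Ase, and 10.06, 10.20 and 10.07 in m3. It was 10.45, 10.03 and 9.77 in Ac+Sens and 9.998 and 8.99 in Ase+m3, against 9.90, 9.65 and 10.15 in GFP. On this probe set, the brighter of 2, the arrays of each single-factor group overlapped those of GFP, and the low value was that of Ase+m3 replicate 2. The means were, from the highest down, 10.18 ± 0.09 in Ase, 10.11 ± 0.11 in Sens, 10.11 ± 0.08 in m3, 10.08 ± 0.35 in Ac+Sens, 10.03 ± 0.01 in Ac and 9.49 ± 0.71 in Ase+m3, against 9.90 ± 0.25 in GFP, which lies between Ac and Ase+m3 (SD, n = 2 in Ac and Ase+m3, 3 elsewhere). No neighbours in this order differed by more than the larger of their SDs. Against GFP the difference of Dl was 0.13 in Ac, 0.21 in Sens, 0.28 in Ase, 0.21 in m3, 0.18 in Ac+Sens and −0.41 in Ase+m3. Ase+m3 minus Ase was −0.69 (SE 0.23, adjusted p = 0.0756), which did not pass the test. A further Dl probe set followed the brighter one with a Pearson correlation of 0.93 across the 19 arrays, and gave 9.95 and 9.19 in Ase+m3 against 9.66, 9.53 and 9.99 in GFP. For it Ase+m3 minus Ase was −0.56 (SE 0.19, adjusted p = 0.0756). Its m3 arrays (10.01 to 10.11) all lay above its GFP arrays, a difference of 0.34 that was not called (adjusted p = 0.452). Its Ase minus GFP was 0.41, not called either (adjusted p = 0.273). The share of all probe sets separated in this way was not counted.

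neur encodes Neuralized, the ubiquitin ligase that acts on Delta in the sending cell, and is known as a gene of sensory organ precursors. Its log2 signal was 8.98 and 9.39 in Ac, 8.94, 9.43 and 9.46 in Sens, 9.22, 9.15 and 9.44 in Ase, and 9.04, 9.11 and 9.26 in m3. It was 9.93, 9.58 and 9.84 in Ac+Sens and 9.23 and 8.90 in Ase+m3, against 8.94, 8.86 and 9.01 in GFP. All Ac+Sens arrays were above all arrays of each other group, and the lowest Ac+Sens array (9.58) was followed by Sens replicate 3 (9.46). In descending order the means were 9.78 ± 0.18 in Ac+Sens, 9.28 ± 0.29 in Sens, 9.27 ± 0.15 in Ase, 9.19 ± 0.29 in Ac, 9.13 ± 0.11 in m3, 9.06 ± 0.24 in Ase+m3 and 8.94 ± 0.07 in GFP. Only the step from Ac+Sens to Sens exceeded the SDs of both neighbours. On the array labelled Sens replicate 1 neur was at 8.94, within the GFP range, and the mean of the other 2 Sens arrays was 9.45 ± 0.02 (SD, n = 2).

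In Ac+Sens neur rose by 0.85 against GFP (SE 0.15, adjusted p = 0.0144, 1.80-fold), in 3 of 3 arrays. It was the 1 gene of the 6 called there, against 0.773% of all probe sets, and by its p it ranked 57 of 18769. The call was lost without GFP replicate 1 (adjusted p = 0.0617), GFP replicate 2 (0.0748) or Ac+Sens replicate 1 (0.0915), the array with the highest neur, and with the zeros set to the lowest value of their array (0.0606). Its size stayed between 0.77 and 0.95 when any single array was left out, and with both doubted arrays left out it was 0.85 with an adjusted p of 0.00219. Against Ac alone the difference of Ac+Sens was 0.60 (SE 0.17, adjusted p = 0.194), and against Sens alone 0.50 (SE 0.15, adjusted p = 0.366). Neither passed the test. The arrays of the groups did not overlap, but the share of all probe sets separated in this way was not counted. In these comparisons 0 of the 6 genes were called, against 0.0799% of probe sets for Ac+Sens minus Ac and 0.0533% for Ac+Sens minus Sens. At an unadjusted p under 0.05 the only gene of the 6 was neur in each, against 9.8% and 7.93% of probe sets. Against the repressor m3 the difference was 0.65 (SE 0.15, adjusted p = 0.0602), and 0 of the 6 were called against 0.762% of probe sets. That difference passed the test without the array labelled Sens replicate 1 (adjusted p = 0.0303), without either Ase+m3 array (0.0381) and with the length trend of each array removed (0.78, adjusted p = 0.0155).

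The single factors gave smaller neur differences from GFP, of 0.25 in Ac, 0.34 in Sens, 0.33 in Ase and 0.20 in m3, and none was called. The 3 Ase arrays and the 3 m3 arrays all lay above the 3 GFP arrays, while Ac and Sens overlapped GFP. The share of all probe sets separated in this way was not counted, so nothing particular to neur is read from it. For fng in Ac and Ase and for mam in Sens all arrays were likewise above GFP. Leaving out both doubted arrays made the Sens difference of neur 0.51 (adjusted p = 0.19). Whether Ac and Sens together differed from the sum of both was tested as an interaction, the difference of Ac+Sens from Ac less that of Sens from GFP, a test added after the values were seen. For neur it was 0.25 (SE 0.23, adjusted p = 0.948), so a departure from the sum was not detectable with these arrays, and 0 of the 6 genes were called against 0.0426% of probe sets. Without the array labelled Sens replicate 1 the interaction was 0.08 (SE 0.20, adjusted p = 0.997) and Ac+Sens minus Sens was 0.33 (adjusted p = 0.9). Leaving out the first or the second Ac array made the interaction 0.05 or 0.46, not called either. All comparisons against GFP share the same 3 GFP arrays.

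Other genes of sensory organ precursors were also higher in Ac+Sens. Of the 8 listed precursor markers, 5 were called higher there against GFP (sens, phyl, sc, spdo and neur), against 0.773% of all probe sets. This count holds neur itself and sens, which is a transgene in these animals, so the further genes were phyl, sc and spdo. The mean log2 signal of the 6 markers measured on all arrays was 8.62 to 9.05 in Ac+Sens, against 6.77 to 7.10 in GFP. It was 7.73 to 7.74 in Ac, 7.64 to 7.88 in Sens, 7.40 to 7.60 in Ase, 6.69 to 6.85 in m3 and 6.93 to 7.03 in Ase+m3. These 6 include neur itself, and also sens and ac, so the mean can hold transgene signal in Ac, Sens and Ac+Sens. The part of these markers in the neur result was not tested. The haemocyte marker NimC1 was also called higher in Ac+Sens (0.91, adjusted p = 0.00721), the other 3 haemocyte markers (Hml, Sr-CI and Pxn) were not, and the part of blood cells was not tested. Of the 2 measured trachea markers, vvl was at 8.39 to 8.98 in Ac+Sens, against 7.41 to 8.12 in GFP, with no overlap, but neither was called (vvl 0.83, adjusted p = 0.164, btl 0.53, adjusted p = 0.0706), and the part of tracheal cells was not tested. Of 4 neuron markers only elav was measured on all arrays, at 7.37 to 8.72 in Ac+Sens against 7.80 to 8.53 in GFP.

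The genes with the neur-like pattern were found by Pearson correlation over the 19 arrays among 6427 candidate probe sets. The 5 highest were Smox (0.886), unk (0.877), Grip163 (0.875), CG31637 (0.868) and CycE (0.855), given as a description. Without Ase+m3 replicate 2 the same correlations were 0.882, 0.890, 0.866, 0.861 and 0.854. None of the 5 was called in Ac+Sens against GFP, where their differences were 0.42 for Smox, 0.73 for unk, 0.67 for Grip163, 0.29 for CG31637 and 0.53 for CycE.

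**Figure D2:**
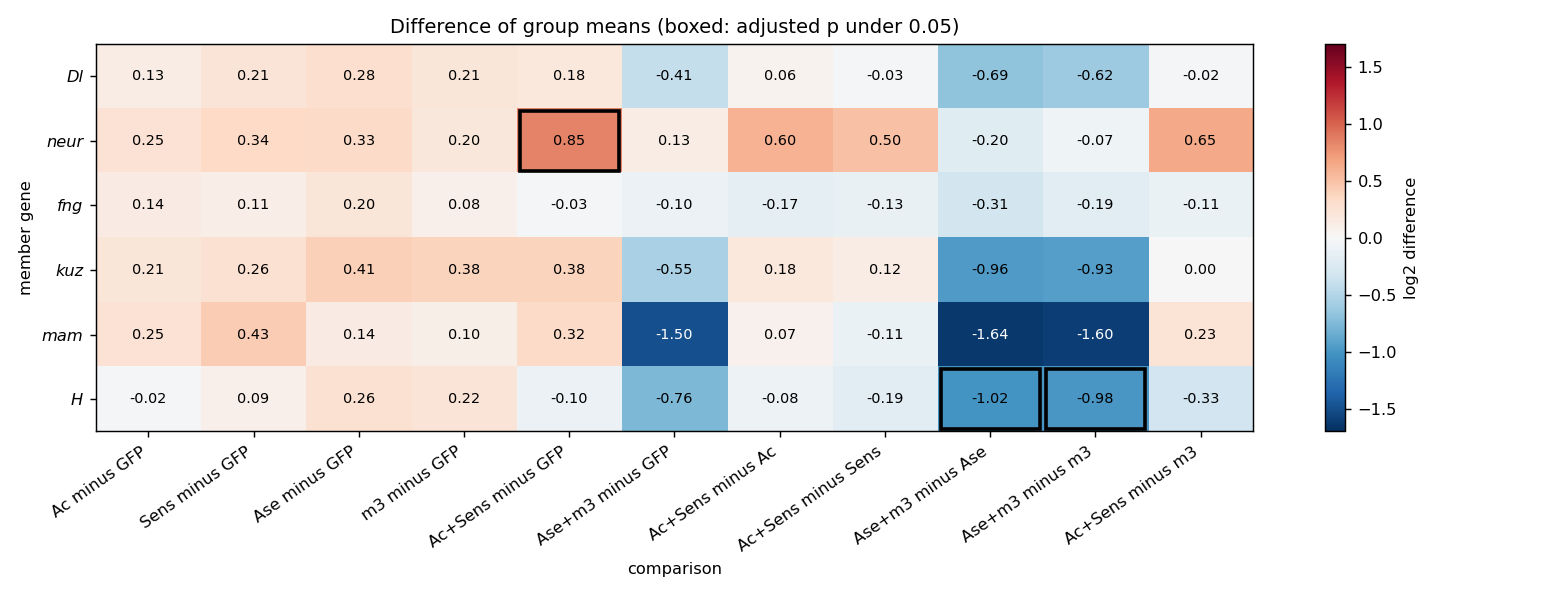
Log2 difference of group means for the 6 measured genes (rows) in 11 comparisons (columns), coloured from lower (blue) to higher (red), with a box where the adjusted p is under 0.05. The boxes are neur in Ac+Sens minus GFP (0.85) and H in Ase+m3 minus Ase (−1.02) and minus m3 (−0.98).

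fng, the gene of the glycosyltransferase Fringe, varied least among the groups. It ranged over the 19 arrays from 10.60 (Ac+Sens replicate 3) to 11.18 (Ase replicate 1), and its group means were 11.12 ± 0.08 in Ase, 11.05 ± 0.02 in Ac, 11.02 ± 0.07 in Sens, 11.00 ± 0.19 in m3, 10.89 ± 0.28 in Ac+Sens, 10.81 ± 0.18 in Ase+m3 and 10.91 ± 0.09 in GFP. Its differences from GFP lay between −0.10 in Ase+m3 and 0.20 in Ase, and no neighbours in the order of means differed by more than the larger of their SDs. On Ase+m3 replicate 2, where Dl, kuz, mam and H were low, fng was at 10.94, within the range of the other arrays.

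kuz, the gene of the metalloprotease Kuzbanian, was between 9.11 and 9.97 on every array except Ase+m3 replicate 2, where it was at 7.70. Ase+m3 replicate 1 was at 9.76. The group means were 9.69 ± 0.11 in Ase, 9.66 ± 0.17 in m3, 9.66 ± 0.42 in Ac+Sens, 9.54 ± 0.18 in Sens, 9.49 ± 0.30 in Ac and 8.73 ± 1.46 in Ase+m3, against 9.28 ± 0.19 in GFP, again with no neighbours apart by more than the larger SD. All 3 Ase arrays (9.60 to 9.82) and all 3 m3 arrays (9.51 to 9.85) were above the 3 GFP arrays (9.11 to 9.49). These differences of 0.41 in Ase and 0.38 in m3 were not called, and the share of all probe sets separated in this way was not counted.

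mam encodes Mastermind, the coactivator of the Notch and Suppressor of Hairless complex. Its brighter probe set was at 7.86 and 7.70 in Ac, 7.95, 7.87 and 8.05 in Sens, 7.82, 7.56 and 7.62 in Ase, and 7.59, 7.44 and 7.85 in m3. It was at 8.14, 8.35 and 7.07 in Ac+Sens and 7.47 and 4.59 in Ase+m3, against 7.62, 7.23 and 7.74 in GFP. The drop to 4.59 on Ase+m3 replicate 2 was the largest departure of any of the 6 genes on any array, while Ase+m3 replicate 1 lay inside the GFP range. Means were 7.96 ± 0.09 in Sens, 7.85 ± 0.69 in Ac+Sens, 7.78 ± 0.11 in Ac, 7.67 ± 0.13 in Ase, 7.62 ± 0.20 in m3 and 6.03 ± 2.04 in Ase+m3, against 7.53 ± 0.27 in GFP, with no neighbours apart by more than the larger SD. Ase+m3 minus Ase was −1.64 (SE 0.54, adjusted p = 0.0732) and Ase+m3 minus m3 was −1.60 (SE 0.54, adjusted p = 0.0744), neither of which passed the test. Without Ase+m3 replicate 2 the first was −0.20. The further mam probe set did not follow, with 5.66 and 5.53 in Ase+m3 and values of 5.14 to 5.66 over the 15 arrays on which it was measured. The Pearson correlation between both probe sets was −0.39 across those 15 arrays, so the change of mam on this array was seen in 1 of its 2 probe sets. The further one was dim in every group and listed at 0 on the arrays with zeros, so it may be unable to show a drop.

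H encodes Hairless, the corepressor adaptor of Suppressor of Hairless. Its log2 signal was 8.94 and 9.11 in Ac, 8.98, 9.11 and 9.32 in Sens, 9.12, 9.38 and 9.43 in Ase, and 9.22, 9.29 and 9.30 in m3. It was 9.12, 9.07 and 8.64 in Ac+Sens and 8.96 and 7.62 in Ase+m3, against 9.08, 8.75 and 9.32 in GFP. Both Ase+m3 arrays were below all Ase and all m3 arrays, by far more on replicate 2 than on replicate 1. The means were 9.31 ± 0.17 in Ase, 9.27 ± 0.04 in m3, 9.14 ± 0.17 in Sens, 9.02 ± 0.12 in Ac, 8.95 ± 0.26 in Ac+Sens and 8.29 ± 0.94 in Ase+m3, against 9.05 ± 0.29 in GFP (SD), and no neighbouring means were apart by more than the larger SD. H was lower in Ase+m3 than in Ase (−1.02, SE 0.27, adjusted p = 0.0442) and than in m3 (−0.98, SE 0.27, adjusted p = 0.0462), and the further H probe set gave −0.87 (adjusted p = 0.0458) and −0.88 (adjusted p = 0.0427). Without Ase+m3 replicate 2 these became −0.35 (adjusted p = 0.382) and −0.31 (adjusted p = 0.410), neither called. Both calls were lost without most other single arrays too, with adjusted p of 0.0503 to 0.14, and were kept only without GFP replicate 2, Ac+Sens replicate 3 or Ase+m3 replicate 1. Against GFP the difference of Ase+m3 was −0.76 and not called. In Ac+Sens the H probe sets went apart, at −0.10 against GFP for the brighter and 0.28 for the further one, neither called. The further one had its highest mean in Ac+Sens, 9.20 ± 0.20, against 8.92 ± 0.15 in GFP (SD, n = 3 each). With the length trend of each array removed, H kept −0.89 against Ase (adjusted p = 0.0534) and −0.88 against m3 (adjusted p = 0.0507). The epidermis markers moved in the same comparisons: of 3 measured (shg, cora and crb), 2 were called lower in Ase+m3 minus Ase (median −0.82) and 3 in Ase+m3 minus m3 (median −0.83). Over all probe sets 5.6% and 6.56% were called there. Their mean log2 signal was 8.12 on Ase+m3 replicate 1 and 7.02 on replicate 2, against 8.46 to 8.57 in Ase and 8.40 to 8.64 in m3. Of the 6 notum markers, 1 was called lower in Ase+m3 minus m3 (eyg, −0.86) and 1 against GFP (ara, −0.65). The fall was not particular to epidermis: 1 of 4 neuron and 1 of 8 precursor markers were also called lower in Ase+m3 minus Ase. From Ase+m3 replicate 1 to replicate 2, elav went from 8.07 to 5.92, the muscle marker twi from 8.57 to 7.78 and the haemocyte marker Pxn from 6.15 to 5.10. The precursor mean went from 6.93 to 7.03. The part of these cells in the H result was not tested.

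H was the 1 gene of the 6 called in Ase+m3 minus Ase, against 5.6% of all probe sets, and likewise the 1 called in Ase+m3 minus m3, against 6.56%. Against GFP 0 of the 6 genes were called in Ase+m3, where 2.31% of probe sets were. The corresponding interaction, the difference of Ase+m3 from Ase less that of m3 from GFP, called 0 of the 6 and 3.95% of probe sets. Its values were −1.24 for H (SE 0.37, adjusted p = 0.0618), −1.06 for the further H probe set (SE 0.32, adjusted p = 0.0618) and −0.90 for the further Dl probe set (SE 0.25, adjusted p = 0.0562). For H it was −0.57 (adjusted p = 0.204) without Ase+m3 replicate 2 and −1.91 (adjusted p = 6.55e-05) without Ase+m3 replicate 1, where 18.2% of probe sets were called.

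**Figure D3:**
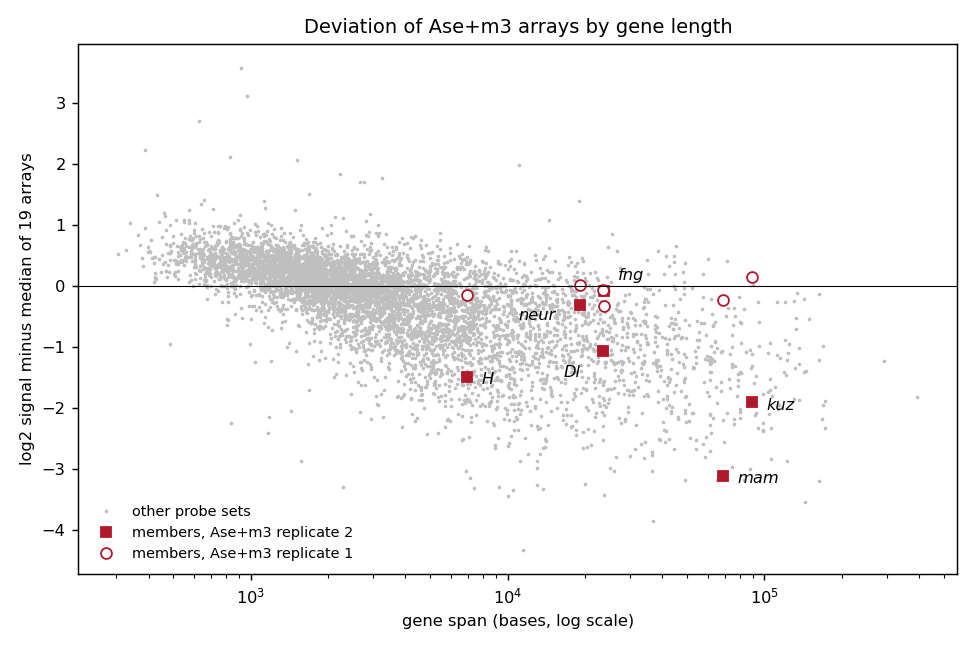
Deviation of Ase+m3 arrays from the median of the 19 arrays (log2, vertical) against the span of the gene (bases, log scale, horizontal). Grey points are the other probe sets on Ase+m3 replicate 2, filled squares the 6 genes on replicate 2 and open circles the same genes on replicate 1; mam (−3.11), kuz (−1.91), H (−1.49) and Dl (−1.07) lie far below 0 on replicate 2 and within 0.25 of it on replicate 1.

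The Ase+m3 values of the 6 genes were therefore set against the spans of their genes. In the RefSeq annotation of assembly Release 6, kuz spans 89273 bases, mam 69154, fng 23622, Dl 23487, neur 19124 and H 6978. Relative to the median array, Ase+m3 replicate 2 was at −1.91 for kuz, −3.11 for mam, −0.08 for fng, −1.07 for Dl, −0.32 for neur and −1.49 for H. Ase+m3 replicate 1 was at 0.15 for kuz, −0.23 for mam, −0.33 for fng, −0.06 for Dl, 0.02 for neur and −0.15 for H. So the drop was uneven among genes of like span, with Dl and fng as an example, and it was not found on the other array of the group. The median difference of the 6 genes in Ase+m3 minus Ase was −0.82, against 0.01 over all probe sets, and without Ase+m3 replicate 2 it was −0.19 against 0.01. The part of RNA quality in this was not tested.

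Lower values were also found on other arrays, with and without a marked length trend. In Ac+Sens, replicate 3 had the lowest value of its group for Dl, fng, kuz, mam and H (5 of 6 genes), but not for neur, whose lowest was replicate 2. On GFP replicate 2 all 6 genes were below the median array, at −0.14 for fng to −0.47 for mam. All 6 were also below it on GFP replicate 1, at −0.03 for H to −0.49 for kuz, where the correlation with length was only −0.136. In the comparisons of Ac, Sens, Ase and m3 with GFP the medians of the 6 genes were 0.17, 0.24, 0.27 and 0.20, against 0.03, 0.05, 0.08 and 0.05 over all probe sets. Without GFP replicate 2 they were 0.11, 0.16, 0.17 and 0.08. None of the 6 genes was called in any of these 4 comparisons, in which 0.218% (Ac), 0.277% (Sens), 1.24% (Ase) and 0.341% (m3) of probe sets were called.

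Among themselves the 6 genes fell into those that shared the low Ase+m3 array and those that did not. Across the 19 arrays, Dl, kuz, mam and H had pairwise Pearson correlations of 0.86 to 0.90. Without Ase+m3 replicate 2 these were 0.36 to 0.66. The correlations of neur with the other 5 genes were −0.12 to 0.48 with all arrays and −0.14 to 0.51 without that array. They are given as a description, since the arrays share their groups and the same normalization.

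The other genes of the pathway were taken from a list of 58 genes by role, of which 48 had a probe set that names the gene alone. Against GFP, none was called in Ac, Sens, m3 or Ase+m3, 2 were higher in Ase, and 1 was higher and 1 lower in Ac+Sens. Over all probe sets the share called was 1.24% in Ase, 0.773% in Ac+Sens and 2.31% in Ase+m3, and nothing particular to the list is read from counts this small. Called in the most comparisons was spdo, which encodes Sanpodo, a membrane protein needed for Notch signalling after the asymmetric division of the precursor. Its log2 signal was 7.08, 6.92 and 7.03 in Ac+Sens, 6.45, 6.14 and 6.31 in Ase, 6.22 and 6.03 in Ac and 6.21, 6.22 and 5.83 in Sens. It was 5.75, 5.73 and 5.77 in m3 and 5.88 and 5.56 in Ase+m3, against 5.76, 5.64 and 5.64 in GFP. All Ac+Sens arrays were above all others, and all Ase, Ac and Sens arrays were above all m3 and GFP arrays. spdo rose by 1.33 in Ac+Sens (SE 0.12, adjusted p = 1.18e-05) and by 0.62 in Ase (SE 0.12, adjusted p = 0.0136). Ac+Sens was also higher than Ac by 0.88 (adjusted p = 0.0169), than Sens by 0.92 (adjusted p = 0.0031) and than m3 by 1.26 (adjusted p = 1.91e-05). The Ase call was lost without GFP replicate 2 (adjusted p = 0.0692) or Ase replicate 1 (0.101), and the call against Ac without Ac replicate 2 (0.186) or Ac+Sens replicate 1 (0.0794) or 2 (0.0505).

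**Figure D4:**
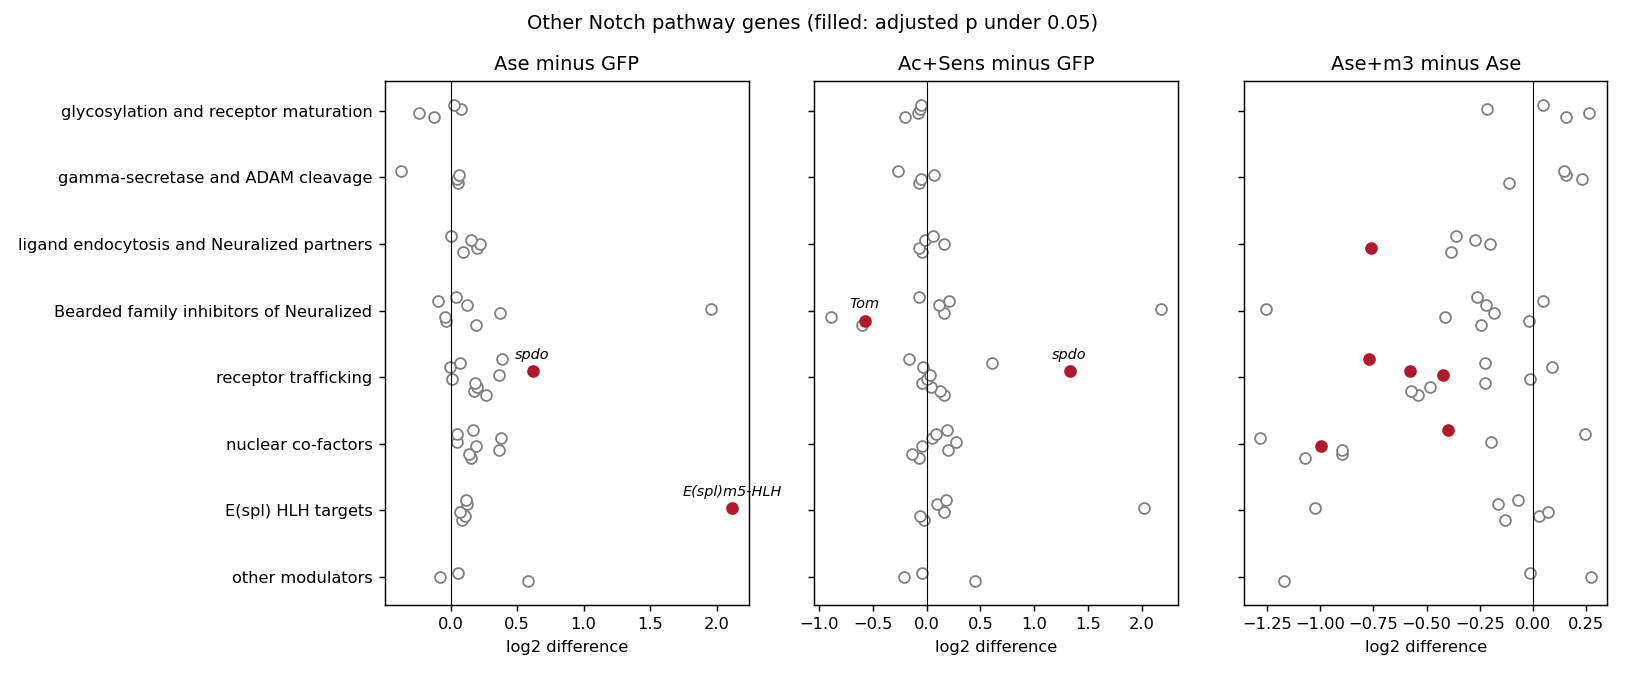
Log2 difference (horizontal axis, a scale of its own in each panel) of the 48 other Notch pathway genes, by role (rows), in Ase and in Ac+Sens against GFP and in Ase+m3 against Ase; filled points have an adjusted p under 0.05. Filled points are spdo and E(spl)m5-HLH in Ase, spdo and Tom in Ac+Sens, and 6 genes below 0 in Ase+m3 minus Ase.

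The Bearded family encodes small inhibitors that bind Neuralized, so their levels were set beside those of neur. Of 8 measured members, 1 was called in Ac+Sens against GFP, and it fell. Tom, a member of the Bearded gene complex, was at 9.49, 9.65 and 9.72 in Ac+Sens, against 10.35, 10.06 and 10.18 in GFP, a difference of −0.58 (SE 0.11, adjusted p = 0.0222), with no overlap between these groups. The Ac arrays (9.88 and 9.76) and the Sens arrays (9.94, 9.72 and 9.88) were also all below GFP, without a call. Sens replicate 2, at 9.72, overlapped Ac+Sens. Tom was also lower than in m3 (−0.68, adjusted p = 0.00632). Ocho, of the same complex, was at 6.26, 6.30 and 6.17 in Ac+Sens, against 7.30, 7.20 and 6.89 in GFP, a difference of −0.89 that was not called (adjusted p = 0.0634). It was called without the array labelled Sens replicate 1 (adjusted p = 0.00395), without Sens replicate 2 (0.0499), without either Ase+m3 array (0.0363), with both doubted arrays left out (0.001), with the replicate block (0.0482) and with array weights (0.012). In Sens, Ocho was at 7.28 on the array labelled replicate 1 and at 6.25 and 6.39 on the other 2, so these overlapped Ac+Sens. In m3, Ocho was at 6.65, 6.66 and 6.76, all below GFP and not called against it. With both doubted arrays left out it was also called lower in Sens minus GFP (−0.81, adjusted p = 0.0109) and in Ac+Sens minus Ac (−0.74, adjusted p = 0.0216). The call of Tom against GFP was lost without GFP replicate 1, without GFP replicate 3 or without Ac+Sens replicate 1 or 2 (adjusted p = 0.119, 0.0583, 0.117 and 0.0732).

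E(spl)m4-BFM, a Bearded family gene in the E(spl) complex and a target of both Notch and proneural factors, had the widest range of the family. It was at 8.15, 8.04 and 9.87 in Ac+Sens, 8.19, 8.48 and 8.72 in Ase, and 8.05 and 7.54 in Ac. It was at 8.47, 6.78 and 6.46 in Sens, 6.32 and 8.10 in Ase+m3 and 6.35, 5.33 and 5.45 in m3, against 6.83, 6.39 and 6.31 in GFP. The high Sens value is that of the array labelled Sens replicate 1, and the arrays of Ac+Sens, Ase and Ac lay above all GFP and m3 arrays. Ac+Sens minus m3 was 2.98 (SE 0.55, adjusted p = 0.0164), a call lost without m3 replicate 2 or 3 or Ac+Sens replicate 3 (adjusted p = 0.106, 0.068 and 0.0553). With both doubted arrays left out it was called against GFP in Ac+Sens (2.18, adjusted p = 0.0131) and in Ase (1.96, adjusted p = 0.0184).

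**Figure D5:**
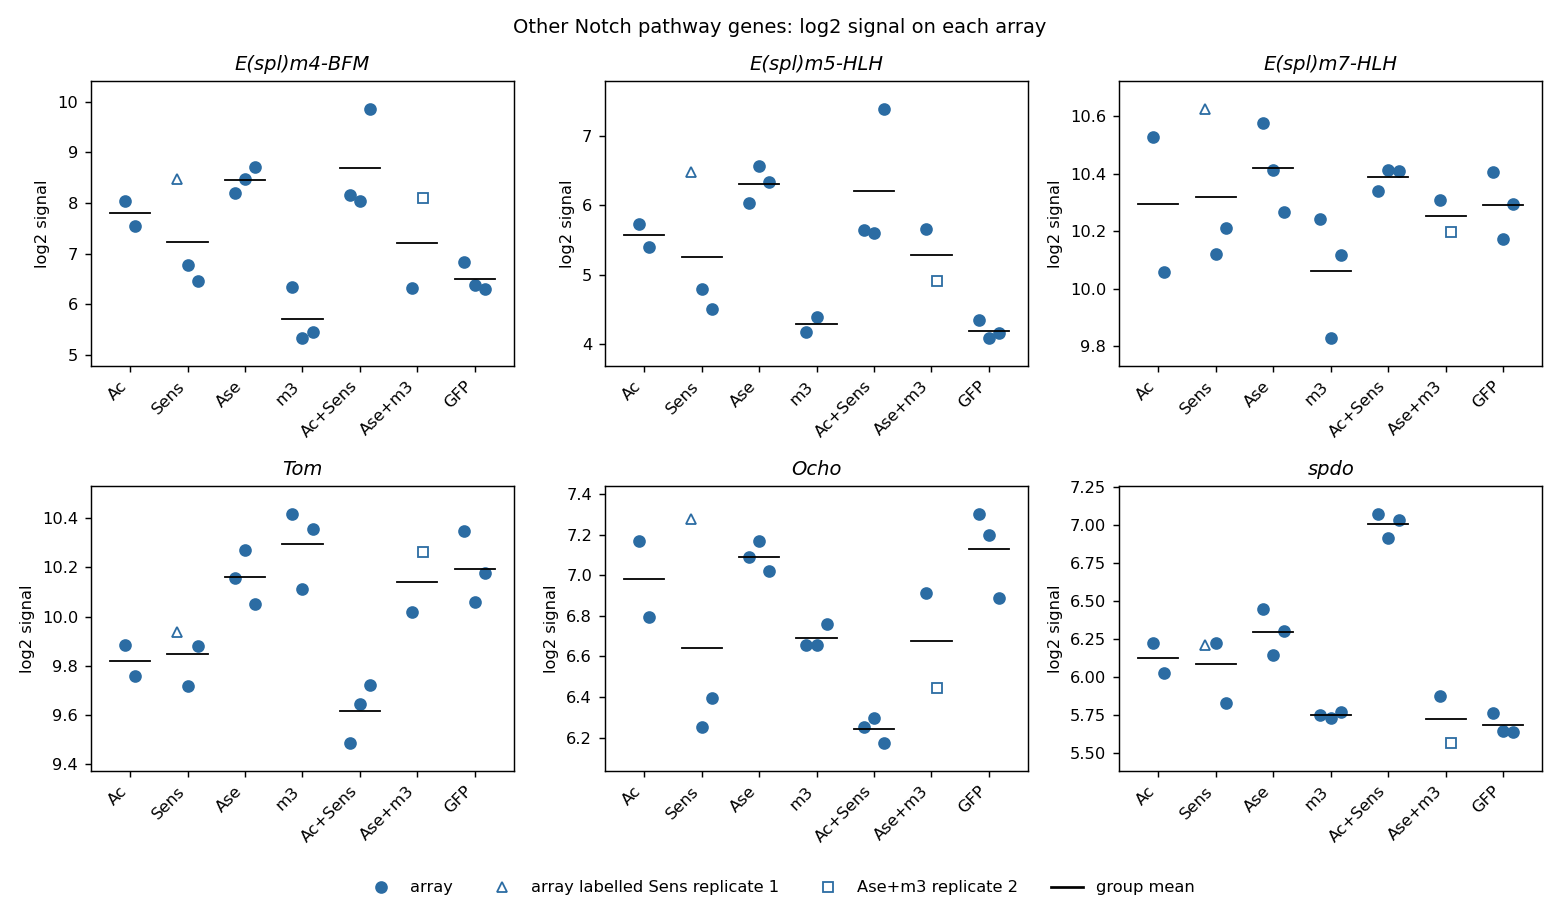
Log2 signal (vertical axis, a scale of its own in each panel) of 6 other pathway genes on each array, by group, with the group mean as a line and open symbols for the array labelled Sens replicate 1 and Ase+m3 replicate 2. Ac+Sens has the highest spdo (6.92 to 7.08), and its Tom (9.49 to 9.72) and Ocho (6.17 to 6.30) lie below all GFP arrays and overlap those of Sens; the Ase arrays lie above the GFP arrays for E(spl)m4-BFM and E(spl)m5-HLH, and the groups overlap for E(spl)m7-HLH.

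Of the 6 measured HLH genes on the target list, 1 was called against GFP. E(spl)m5-HLH, a bHLH repressor gene of the E(spl) complex, was at 6.03, 6.56 and 6.33 in Ase, against 4.34, 4.08 and 4.16 in GFP. This is a rise by 2.11 (SE 0.48, adjusted p = 0.0467). It was also at 5.64, 5.60 and 7.39 in Ac+Sens, a difference of 2.02 from GFP with an adjusted p of 0.0734. It was at 5.73 and 5.40 in Ac, 6.48, 4.79 and 4.50 in Sens and 5.65 and 4.91 in Ase+m3, all above the GFP arrays but not called, and at 4.17 and 4.39 in m3, where replicate 3 is listed at 0. Leaving out any single Ase or GFP array took the Ase call above the threshold (adjusted p of 0.100 to 0.186). It was also lost without either Ac array (0.0536), Sens replicate 2 (0.0599), m3 replicate 1 (0.0674) or 2 (0.07) or Ac+Sens replicate 2 (0.0506), and with both doubted arrays left out its adjusted p was 0.00709. The other 5 HLH genes (E(spl)mdelta-HLH, E(spl)mbeta-HLH, E(spl)m3-HLH, E(spl)m7-HLH and dpn) were called in no comparison. E(spl)m3-HLH, of which m3 animals carry a UAS transgene, stood at 11.10 ± 0.08 in m3 and 11.05 ± 0.03 in GFP (SD, n = 3 each), and the sources used here do not place its probes relative to the transgene.

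In Ase+m3 minus Ase 6 of the 48 genes were called, against 5.6% of all probe sets, all lower: krz (−0.77), lqf (−0.76), kto (−0.998), numb (−0.42), ebi (−0.40) and spdo (−0.58). In Ase+m3 minus m3 it was also 6, against 6.56% of probe sets, all lower: lqf (−0.78), kto (−1.05), ebi (−0.42), Nedd4 (−0.72), dx (−0.53) and Su(dx) (−0.56). kurtz (krz) is a beta-arrestin gene, lqf encodes the endocytic factor epsin, numb encodes an inhibitor of Notch that is passed to 1 daughter of the precursor, and kto is a Mediator subunit gene. dx, Nedd4 and Su(dx) encode ubiquitin ligase components that act on Notch trafficking. The median of the 48 genes was −0.22 in Ase+m3 minus Ase, against 0.01 over all probe sets. Of all these calls only that of krz was kept without Ase+m3 replicate 2, at −1.05 (adjusted p = 0.000649), with 1 Ase+m3 array assumed to vary like the other groups. krz was at 5.96 and 6.52 on Ase+m3 replicates 1 and 2 and between 6.95 and 7.12 in Ase, against 6.54 to 6.67 in GFP, so its low value was not that of the array with the length trend.

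By role, the gene with the smallest p of the F test was rumi (unadjusted p = 0.257) among glycosylation and maturation genes, and Tace (0.23) among cleavage genes. It was lqf (0.0155) for ligand endocytosis, ebi (0.0106) for nuclear cofactors and pcx (0.0892) for other modulators. None of these 5 was called by that test. rumi, an O-glucosyltransferase gene acting on Notch, was at 9.18 ± 0.03 in Ase and 9.42 ± 0.04 in GFP (SD, n = 3 each). Tace, an ADAM protease gene, was listed at 0 on 4 arrays and was at 3.81 ± 0.09 in Ase (n = 2) and 4.18 ± 0.21 in GFP (n = 3, SD). pcx was at 6.45 ± 1.30 in Ase+m3 (n = 2) and 7.04 ± 0.40 in GFP (n = 3, SD), lowest on Ase+m3 replicate 2. By the F test, spdo, Tom (adjusted p = 0.0152) and E(spl)m4-BFM (0.0389) were the only called genes of the 48.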

How the data were processed

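RNA of 19 notum pools was hybridised to Affymetrix Drosophila Genome 2.0 arrays after labelling of 500 ng of total RNA, per the labels' protocols. The authors deposited 1 log2 signal per probe set, made with RMA per the submitters' processing notes. The sources used here give neither its version nor later steps. No depth applies to arrays, so the number of arrays limits the precision, and p-values measure the spread between these pools.

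Exact zeros were taken as missing. Groups came from the sample titles. Names came from the platform annotation, in which 13647 probe sets name 1 gene, 402 several and 4720 none. Gene identities and lengths, which are spans on the genome, came from the RefSeq table. The brightest probe set over the arrays without zeros represented a gene. The tests used limma 3.58.1 (R 4.3.3), with lmFit and eBayes on 1 model of the 7 group means, without a filter or covariate, two-sided; 11 comparisons and 2 interactions were made. The model was tested on simulated data with independent noise. These held no length trend and no doubted array, so they do not cover either.

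The members and lists were chosen with earlier results of these data known. Named are all members, differences with an adjusted p under 0.05 or an unadjusted p under 0.01, other pathway genes that were called, the gene of each role with the smallest F p, and the 5 genes most like neur. Ocho, NimC1 and E(spl)m3-HLH were named after their values were seen. A planned search of promoters for motifs was not run, as no sequences were used here.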

Additional observations from a re-analysis of the deposited data

How the results depend on the processing

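Each result was recomputed without each of the 19 arrays in turn and under 10 other settings. All 42 group levels moved by less than 1 SD of their own group when 1 array was left out. In groups of so few arrays the mean cannot move further than that, whatever the values, so this count does not show stable levels. Under the other settings 408 of 420 levels moved by less than 1 SD. The same limit holds there for the setting with both doubted arrays left out. None of the 9 member differences reversed. When single arrays were left out, the number of the 6 genes called ranged from 0 to 1 in Ac+Sens minus GFP and in Ac+Sens minus m3. It ranged from 0 to 4 in each of the 3 Ase+m3 comparisons, with 4 without Ase+m3 replicate 1, and from 0 to 5 by the F test, with 5 without the same array. Without that array 18.3% (against Ase), 15.5% (against GFP) and 17.5% (against m3) of all probe sets were called. Of the 48 other genes, 0 to 1 were called in Ac+Sens minus Ac and in Sens minus GFP, 1 to 5 in Ac+Sens minus GFP and 0 to 5 in Ase minus GFP. In Ase+m3 the ranges were 0 to 22 against Ase, 0 to 15 against GFP and 0 to 20 against m3, each highest without Ase+m3 replicate 1. In Ase minus GFP and Ac+Sens minus GFP 5 were called without either Ase+m3 array, and in Ac+Sens minus GFP also without the array labelled Sens replicate 1.

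With both doubted arrays left out, 1 of the 6 genes was called in Ac+Sens minus m3 and by the F test, and 0 in Ase+m3 minus Ase and minus m3. Of the 48, 5 were then called in Ac+Sens minus GFP (1.28% of all probe sets) and 5 in Ac+Sens minus m3 (1.32%). In Ac+Sens minus Ac it was 2 (0.4%), in Ase minus GFP 4 (2.25%) and in Sens minus GFP 1 (0.309%). With all arrays these shares of probe sets were 0.773%, 0.762%, 0.0799%, 1.24% and 0.277%, so calls rose over the whole array too. Between groups, same-numbered arrays had deviations correlated at −0.425 to 0.547 (median −0.003), and other pairs at −0.711 to 0.711 (median 0.007). Such wide ranges cannot show whether arrays of 1 number were processed together. Zeros were listed only on arrays numbered 3, and the labels give no batch. With the replicate block, 0 of the 6 were called in Ase+m3 minus Ase (H −0.99, adjusted p = 0.0657) and minus m3 (H −0.95, adjusted p = 0.0683), and neur in Ac+Sens minus GFP kept its call (0.85, adjusted p = 0.0187). Of the 48, the replicate block left 1 in Ase, 3 in Ase+m3 minus Ase and 0 in Ase+m3 minus m3. Quantile normalization called 0 of the 6 in both of those. Of the 48 it called 0 in Ase, Ac+Sens minus Ac, Ase+m3 minus Ase and Ase+m3 minus m3. It called 1 in Ac+Sens minus GFP and 2 in Ase+m3 minus GFP, against 0.277% and 7.84% of all probe sets. It moved the median over all probe sets of Ase+m3 minus GFP to 0.23, against 0.07 as deposited. With the length trend removed, 1 of the 6 was called in Ac+Sens minus m3 and by the F test, and 0 in Ase+m3 minus Ase and minus m3, although the median difference of the 6 stayed at −0.74 against Ase (−0.82 as deposited). With zeros at the lowest value, 0 of the 6 were called in Ac+Sens minus GFP, Ase+m3 minus Ase and Ase+m3 minus m3. Of the 48, 0 were called in these Ase+m3 comparisons and in Ac+Sens minus Ac, and 1 in Ac+Sens minus GFP and in Ase.

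Array weights called 2 of the 6 in Ac+Sens minus GFP, 1 in Ac+Sens minus m3, Ase and the F test, and 0 in Ase+m3 minus Ase and minus m3. Of the 48 they called 10 in Ac+Sens minus GFP, 11 in Ase, 6 in Ac+Sens minus m3, 3 in Sens, 2 in Ac+Sens minus Ac and minus Sens, 1 in Ac and in m3, and 0 in Ase+m3 minus Ase and minus m3. With these weights 1574 of all 18769 probe sets were called in Ac+Sens minus GFP, 2659 in Ase and 1553 in Ac+Sens minus m3, against 145, 233 and 143 without them. The settings for Ocho and the interactions without single arrays were chosen after seeing the data. The trended robust prior called 1 of the 6 by the F test. The mean of a gene's probe sets called 0 of the 6 in Ase+m3 minus Ase and 1 of the 48 in Ase. With only the 7284 probe sets measured on all arrays, some of the 48 genes are not tested. In that setting 10 of them were called in Ase+m3 minus Ase, against 20.4% of the probe sets tested. The cause of these changes was not tested.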
